A study of Mus musculus with 24 samples.

Results

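The libraries described here come from J774.1 cells, a mouse macrophage line of the BALB/c strain (female, per the labels), either wildtype or carrying a Ctbp1/2 double knockout (dKO). They are 6 of the 24 samples of the series, 3 of each genotype, and were chosen by genotype and treatment alone. All 6 were exposed to 100 ng/ml lipopolysaccharide (LPS) for 4 h, so no J774.1 library without LPS is analysed here and a difference present before LPS cannot be told apart from a changed response to it. The other 18 samples are bone marrow-derived macrophages (BMDMs) of C57BL6/N mice (male, per the labels, 3 per group), treated with control, Ctbp1 or Ctbp2 siRNA and then with vehicle (PBS) or the same dose of LPS. They serve here as a source of LPS-responsive genes and of siRNA values to set beside the knockout. The labels give no method of knockout and do not say whether the dKO line is 1 clone or whether its replicates, called biological, were separate cultures, so an effect of the clone cannot be told apart from an effect of the genotype, and p-values measure the spread between these samples.

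CtBP1 and CtBP2 (C-terminal binding proteins) are closely related NAD(H)-binding co-repressors. They do not bind DNA themselves but are brought to genes by DNA-bound factors such as ZEB and KLF proteins, and they carry histone deacetylases, histone methyltransferases and the demethylase LSD1 to those sites. LPS is sensed by TLR4 with CD14 on macrophages. One arm of the response, through MyD88 and NF-kB, induces cytokines such as TNF and IL-6. The other, through TRIF and IRF3, induces interferon beta, which acts back on the cell through IFNAR, the kinases JAK1 and TYK2 and factors such as STAT2 and IRF9 to switch on antiviral genes.

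Values are in TPM, a unit scaled to a fixed total per library, which expresses a transcript as a share of its library's RNA, corrected for length. Differences are log2 differences of TPM + 1, dKO minus wildtype, from a limma fit over the 6 libraries. Calls were made at an adjusted p under 0.05 (Benjamini-Hochberg, over the 7782 genes whose mean reached 10 TPM). Libraries of 1 genotype correlated at 0.98852 or more with each other and at 0.95389 to 0.96193 across genotypes, and the first principal component (74.7% of the variance) separated the genotypes. Between 11581 and 11823 genes reached 1 TPM per library. Genes that define macrophages were present: Csf1r, Cd68, Lyz2, Spi1, Ctss, Cd14, Fcgr1, Itgam and Adgre1 were all above the 10 TPM minimum, while Mertk was at or near 0 in all 6 libraries. Markers of natural killer cells summed to 0 TPM in every library, those of neutrophils to at most 0.742 TPM, those of epithelial cells to at most 0.0668 TPM and those of stromal and endothelial cells to at most 0.952 TPM. B cell markers summed to 81.2 to 90.6 TPM in wildtype and 84.2 to 100.0 TPM in dKO, of which only Ighm was tested and not called. Mast cell and basophil markers summed to 26.9 to 32.5 TPM in wildtype and 43.8 to 50.3 TPM in dKO, mostly from the histamine-forming enzyme gene Hdc, which was called higher (0.64). In bulk libraries fewer cells of a type and less RNA per cell cannot be told apart.

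The knockout was read first in its targets. Ctbp1 stood at 156, 164 and 161 TPM in wildtype and at 21.3, 22.3 and 16.1 TPM in dKO. That left 12.4% of the wildtype mean (log2 difference −2.96 ± 0.105 SE, adjusted p = 2.17e-07). Ctbp2 stood at 81.4, 74.4 and 78.7 TPM in wildtype and at 64.1, 61.5 and 63.6 TPM in dKO, which left 80.7% (−0.31 ± 0.044 SE, adjusted p = 0.000723). The genotypes did not overlap for either gene, but most Ctbp2 transcript was retained in cells labelled as lacking it. Gene-level TPM cannot tell an intact transcript from one with a disrupting edit, and no protein was measured. The libraries therefore show loss of most Ctbp1 transcript, and for Ctbp2 the label rests on information not analysed here.

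Of the 7782 genes tested, 3272 were called (42.0%), of which 1979 were higher in dKO (25.4%) and 1293 lower (16.6%). At least 2-fold differences were rarer, with 181 higher (2.33%) and 60 lower (0.771%). TPM of a library add up to a fixed total, so the balance between the directions depends on the scaling: with libraries rescaled by median-of-ratios size factors there were 1496 higher calls (19.2%) and 2015 lower calls (25.9%), a shift of the median log2 difference from 0.03 to −0.03. Shares of calls in a gene group have to be read against these values. The plot of all tested genes shows the large differences spread over genes of low and high abundance. The 3 values of one genotype did not overlap the 3 of the other for 4196 genes (53.9%), so lack of overlap alone is common here. The authors' deposited table called 3636 of the tested genes, 1516 higher and 2120 lower, so more were lower there, as after rescaling. In both, 2674 genes were called, 2673 of them in the same direction. On the 20 chromosomes with at least 100 tested genes the median difference lay between −0.00974 and 0.064.

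**Figure D1:**
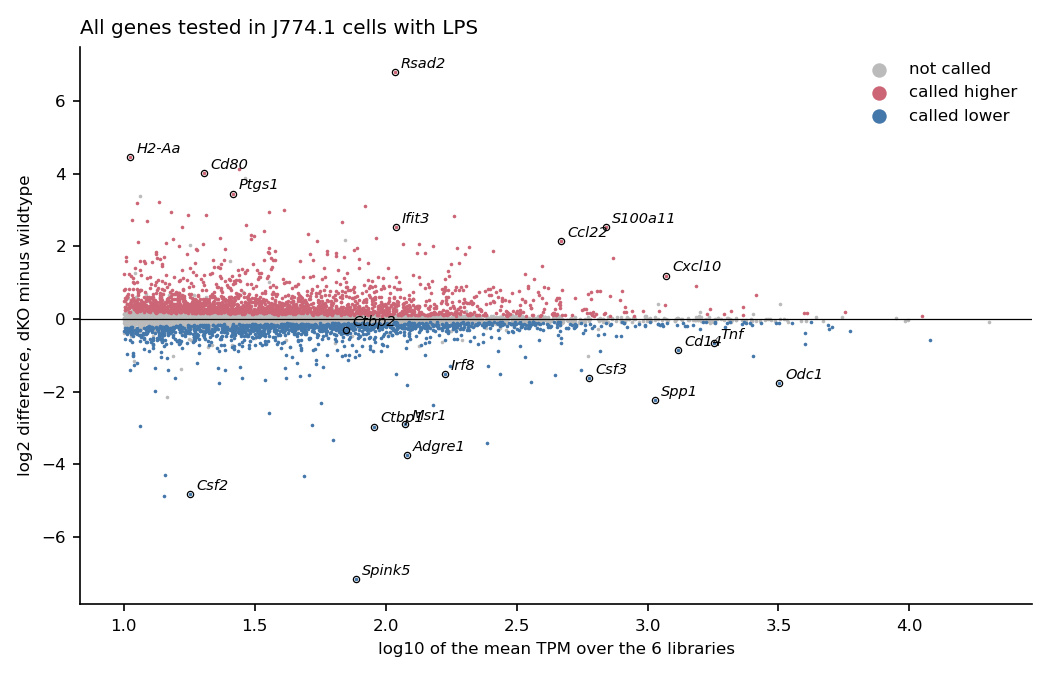
Each point is 1 of the 7782 genes tested. The x axis is the log10 of its mean TPM over the 6 libraries and the y axis its log2 difference of TPM + 1, dKO minus wildtype; colours mark genes called higher or lower at an adjusted p under 0.05 (limma), and circles mark named genes. Rsad2 (6.80) is the highest point and Spink5 (−7.16) the lowest, while Ctbp2 (−0.31) lies within the main band.

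The largest single increases were Rsad2, Serinc2 and Cd80. Rsad2, which encodes the antiviral enzyme viperin, was near the floor in wildtype, at 1.34, 0.605 and 0.962 TPM, and at 207, 228 and 212 TPM in dKO (6.80 ± 0.123 SE, adjusted p = 3.65e-09). Serinc2, a serine-incorporator membrane protein, stood at 2.10 ± 0.226 TPM in wildtype and at 53 ± 0.914 TPM in dKO (SD, n = 3), a log2 difference of 4.13 (adjusted p = 3.3e-09). Cd80, the co-stimulatory ligand of CD28 and CTLA-4 on T cells, was at 1.56, 1.24 and 1.66 TPM in wildtype and at 36.9, 41.4 and 39.0 TPM in dKO (4.01 ± 0.088 SE, adjusted p = 9.11e-09). Others among the 15 largest were Ptgs1 (cyclooxygenase 1), Fgd2 (a Cdc42 exchange factor), the protease inhibitors Serpinb9 and Serpinb8, the interferon-inducible surface protein Ly6e, the anthrax toxin receptor Antxr2, the membrane repair protein Myof and the semaphorin Sema4d. Their log2 differences ran from 2.34 for Sema4d to 3.46 for Ptgs1. The 15 were taken only from called genes whose genotypes did not overlap. That every dKO library was above every wildtype library in them therefore follows from the rule.

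The largest decreases were led by Spink5, Mybl1 and Adgre1. Spink5, a serine protease inhibitor, was at 163, 148 and 150 TPM in wildtype and at 0.0821, 0.105 and 0.0504 TPM in dKO (−7.16 ± 0.066 SE, adjusted p = 1.91e-10). Mybl1, a transcription factor of the MYB family, fell from 93.6 ± 1.4 to 3.68 ± 0.37 TPM (−4.34, adjusted p = 2.52e-09). Adgre1, which encodes F4/80, a surface protein long used to identify mouse macrophages, was at 225, 220 and 230 TPM in wildtype and at 14.7, 17.4 and 15.4 TPM in dKO, or 7.04% of the wildtype mean (−3.75 ± 0.0601 SE, adjusted p = 2.52e-09). Pla2g5, a secreted phospholipase, fell from 449 ± 9.87 to 40.9 ± 3.18 TPM (−3.43), and Calcrl, the receptor for calcitonin gene-related peptide and adrenomedullin, from 116 ± 9.31 to 10.5 ± 0.833 TPM (−3.34). Phlda1, St3gal6, Ets2, Lif, Spp1, Nfkbiz, Odc1, Fcgr2b and the scavenger receptor gene Msr1 completed the 15 largest decreases together with Ctbp1. Odc1, the rate-limiting enzyme of polyamine synthesis, was one of the most abundant of them and fell from 4917 ± 21.7 to 1433 ± 15.3 TPM (−1.78, adjusted p = 4.54e-10).

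**Figure D2:**
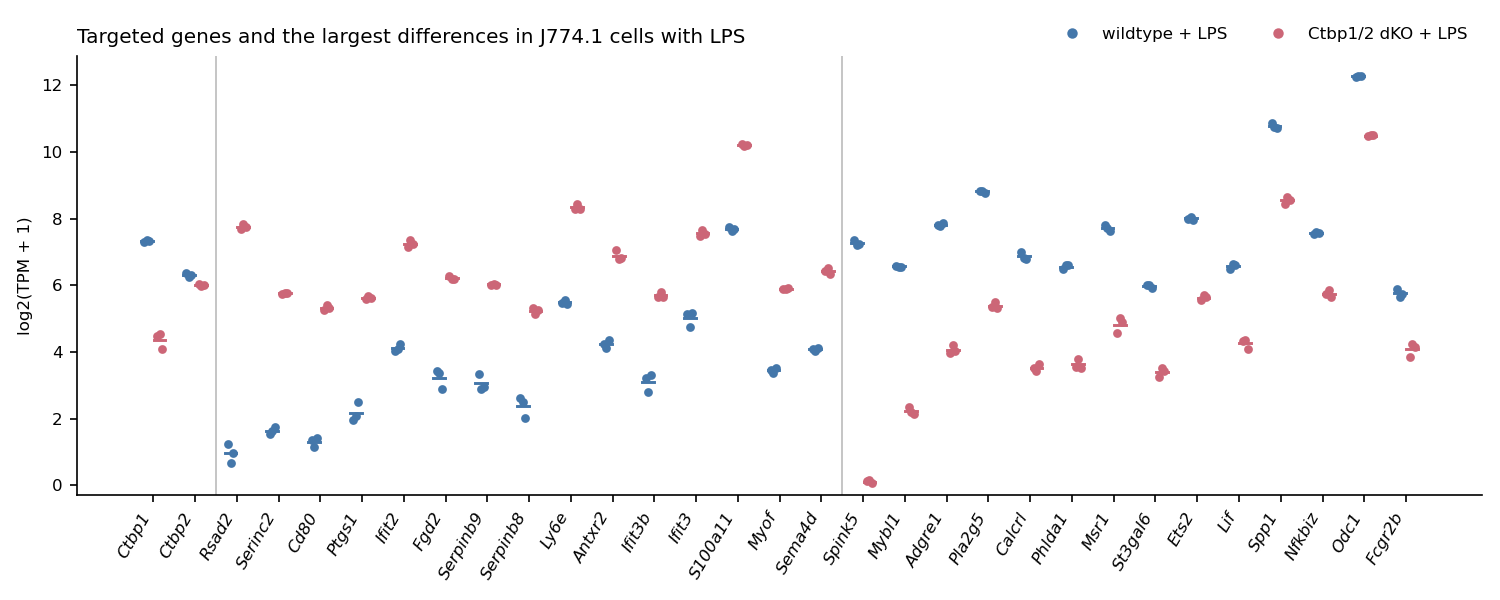
Points are single libraries (blue wildtype, red dKO, both with LPS) and short lines their means, on a log2(TPM + 1) axis. After the targets Ctbp1 and Ctbp2 come the 15 genes with the largest increases and the 14 other genes with the largest decreases. These were taken from called genes whose means reached 20 TPM and whose genotypes did not overlap. The genotypes did not overlap for Ctbp1 and Ctbp2 either.

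Some genes were near or at 0 in 1 genotype. They were taken by the rule of at least 5 TPM in all 3 libraries of one genotype and under 1 TPM in all 3 of the other, which uses the values themselves and is given without a test. There were 20 genes higher in dKO and 9 lower. The most abundant of the higher genes was H2-Aa, the alpha chain of the MHC class II molecule I-A, listed at 0 in all 3 wildtype libraries and at 21.6, 20.5 and 21.3 TPM in dKO. H2-Eb1, the beta chain of I-E, was also listed at 0 in wildtype and stood at 20.0, 16.2 and 17.6 TPM in dKO. The inhibitory collagen receptor Lair1 stood at 0.497 ± 0.185 TPM in wildtype and 18.6 ± 0.851 TPM in dKO, and the NADPH oxidase Nox1 at 0.250 ± 0.135 and 11 ± 1.27 TPM. Padi4, which citrullinates histones, was listed at 0 in wildtype and stood at 11.2 ± 1.06 TPM in dKO. The pro-apoptotic BH3-only gene Bmf, known from other cells as a CtBP target, stood at 0.821 ± 0.160 and 12.1 ± 0.538 TPM. On the lower side were Spink5, Csf2, the splicing regulator Rbfox1 (28.4 ± 1.31 and 0.487 ± 0.122 TPM), the calcium channel gene Cacna1a, the glycosyltransferase Galnt6, Rgs1, Antxr1, Pcdhgc3 and the growth factor Igf1, which was listed at 0 in all 3 dKO libraries against 5.87 ± 0.668 TPM in wildtype. A stricter rule of 10 against 0.5 TPM left 5 higher and 2 lower.

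Antiviral interferon-stimulated genes rose as a group. Of 53 members listed 46 were tested, 45 were called higher and 1 lower, with a median log2 difference of 0.92 against 0.03 over all genes tested. The shares were 97.8% higher and 2.17% lower, against 25.4% and 16.6% over all genes. Of the 46 tested, 41 had a mean of at least 10 TPM in both genotypes, so that their test did not depend on the dKO level alone. Of these 41, 40 were higher. The summed level of the list went from 5311 to 5437 TPM in wildtype libraries to 9486 to 10310 TPM in dKO libraries. Ifit2, which binds viral RNA, was at 15.3, 16.0 and 17.9 TPM in wildtype and at 141, 161 and 150 TPM in dKO (3.12 ± 0.069 SE, adjusted p = 9.11e-09). Ifit3 went from 31.7 ± 5.19 to 187 ± 12.4 TPM (2.54), Ifit1 from 60.1 ± 2.01 to 245 ± 4.02 TPM (2.01) and Mx1, a dynamin-like GTPase that blocks viral replication, from 2.51 ± 0.360 to 22 ± 3.29 TPM (2.71). Reads of Ifit3 cannot be fully separated from those of its near copy Ifit3b, which had a similar difference (2.60). Some members that were abundant in wildtype differed less. Isg15, a ubiquitin-like modifier, was at 483, 478 and 486 TPM in wildtype and at 819, 857 and 814 TPM in dKO (0.78 ± 0.028 SE, adjusted p = 1.57e-07), and Usp18, which removes it and restrains interferon signalling, went from 234 ± 2.22 to 501 ± 31.2 TPM (1.09). The exception was Slfn2, at 527 ± 17.4 and 481 ± 11.3 TPM (−0.13, adjusted p = 0.0127).

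The regulators of the interferon pathway rose with their targets, with the ligand and Irf8 going the other way. Of 19 tested interferon regulatory factors, STATs, Janus kinases and interferon receptors, 14 were called higher (73.7%) and 1 lower (5.26%), with a median of 0.61. Over all genes 25.4% were higher and 16.6% lower, with a median of 0.03. Jak2, a kinase of the interferon gamma receptor, was at 20.0, 19.5 and 19.6 TPM in wildtype and at 87.1, 94.2 and 89.0 TPM in dKO (2.14 ± 0.046 SE, adjusted p = 9.11e-09). Irf1 went from 18.1 ± 1.08 to 57.8 ± 5.23 TPM (1.62), Stat2 from 42.8 ± 2.07 to 116 ± 1.19 TPM (1.42) and Tyk2 from 21.4 ± 0.324 to 50.0 ± 2.58 TPM (1.19). Irf7, which amplifies interferon production, rose from 200 ± 5.10 to 349 ± 25.0 TPM (0.80). Jak1, Stat3, Stat6 and the receptor subunit Ifnar2 were not called. Irf8, a lineage factor of monocytes and macrophages, was at 243, 255 and 251 TPM in wildtype and at 80.4, 90.9 and 86.6 TPM in dKO (−1.53 ± 0.047 SE, adjusted p = 6.45e-08). Ifnb1, the ligand itself, was at 36.4, 34.1 and 36.7 TPM in wildtype and at 13.6, 11.7 and 13.5 TPM in dKO (−1.4 ± 0.0703 SE, adjusted p = 1.04e-06). At 4 h of LPS, then, the dKO libraries held less interferon beta transcript and more transcript of its target genes.

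Genes for intracellular defence and antigen presentation followed the same direction. Over all genes tested 25.4% were called higher and 16.6% lower. All 6 tested GBP and IRG family GTPases, which attack the vacuoles of intracellular pathogens, were called higher (median 1.66; 5 of 5 with at least 10 TPM in both genotypes), among them Gbp7 (7.51 ± 0.0157 to 39.3 ± 2.10 TPM, 2.24), Gbp3 (2.20) and Igtp (31.9 ± 1.75 to 107 ± 4.22 TPM, 1.71). The other 13 members were below the 10 TPM minimum. Of 19 tested MHC class I genes 18 were higher and 0 lower (median 0.71; 16 and 0 of 17 with at least 10 TPM in both genotypes). The peptide transporter Tap1 was at 40.4, 43.2 and 45.9 TPM in wildtype and at 92.0, 102 and 92.6 TPM in dKO (1.13 ± 0.060 SE, adjusted p = 1.48e-06), and its partner Tap2 rose by 1.51. The heavy chain H2-K1 went from 496 ± 19.2 to 720 ± 4.58 TPM (0.54) and the light chain B2m from 1019 ± 11.8 to 1318 ± 25.4 TPM (0.37), while the peptide trimming enzyme Erap1 was not called (0.13, adjusted p = 0.345). Heavy chain genes of this family are alike in sequence, so counts may be shared among them. Of 6 tested class II and co-stimulation genes all 6 were higher, 4 of 4 with at least 10 TPM in both genotypes. Besides H2-Aa and Cd80, the co-stimulatory receptor Cd40 (171 ± 4.99 to 284 ± 9.94 TPM, 0.73) and the invariant chain Cd74 (319 ± 4.49 to 473 ± 9.77 TPM, 0.57) were called higher. The class II master regulator Ciita stayed at 0.0748 ± 0.0196 TPM or less in both genotypes, and Cd86 was below 1 TPM throughout. Dendritic cell markers, none of which reached the 10 TPM minimum, summed to 1.00 to 1.93 TPM in wildtype and 6.02 to 9.06 TPM in dKO. Of these 9 markers 8 averaged below 1 TPM, and Itgax was the other. The part of the markers in the class II levels was not tested.

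**Figure D3:**
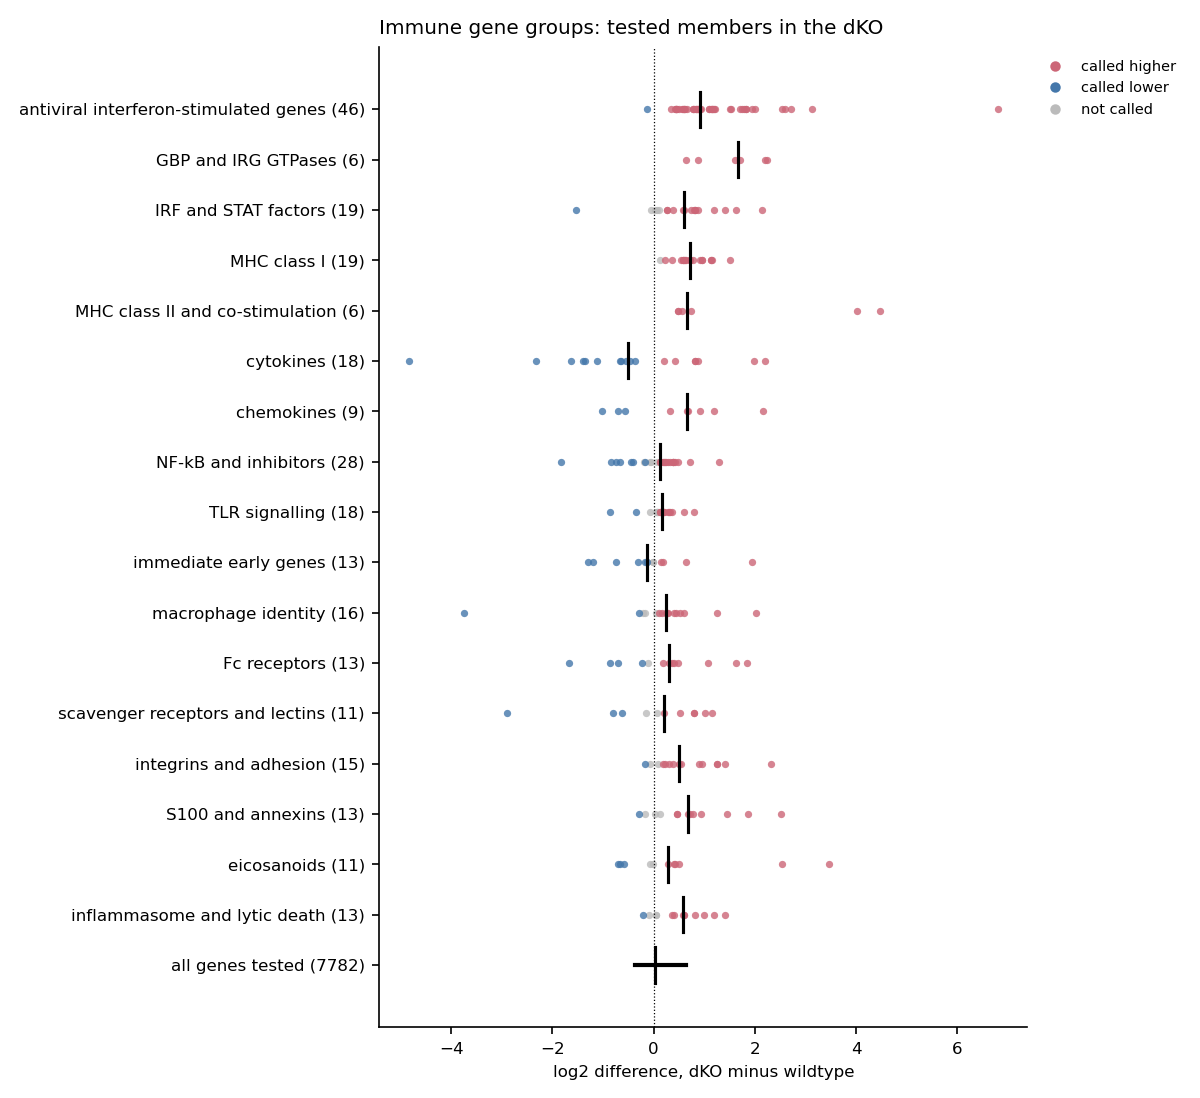
Each point is a tested member of the gene group on the y axis (number tested in brackets), placed at its log2 difference of TPM + 1, dKO minus wildtype; red and blue mark calls, grey genes not called, and black ticks group medians. The bottom bar spans the 5th to 95th percentile of all genes tested (−0.38 to 0.64). Interferon, GBP and class I members lie almost wholly to the right, while cytokines reach furthest to the left.

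The promoters of these genes were read for the interferon-stimulated response element (ISRE), a site bound by factors of the IRF family. It was searched on both strands as GAAA, any 2 bases and GAAA again, in RefSeq windows (GRCm38.p6) from 250 bases before to 50 bases after each start. A window existed for 33 of the 46 tested antiviral genes, 42 windows in all, and 20 of these held the letters (47.6%). Over all genes tested the share was 3.2% of 7595 windows, among genes at least 2-fold higher 16.1% and among genes at least 2-fold lower 3.8%. For NF-kB, GGGA, any 2 bases and TTCC were found in 1.5% of all windows and in 3 of the 52 windows of genes at least 2-fold lower (5.8%), Ifnb1 and Il6 among them, in 2.1% of the windows of genes at least 2-fold higher and in 2 of the 42 antiviral windows (4.8%). CACCC, a KLF site, was in 61.4% of all windows, 68.2% of the higher and 59.6% of the lower genes, and CAGGTG, a ZEB site, in 16.2%, 19.3% and 23.1%. A match describes the letters only and is not evidence of binding. The 250 bases before the start are shown for 2 antiviral genes that rose and for 2 cytokines that fell. They were chosen after their values were seen and only among genes with a window that held the letters. The windows of Ifit2 held no ISRE letters, and those of the lower cytokines Csf2, Lif, Vegfa, Tnf and Tgfb1 no NF-kB letters. Capitals mark the ISRE letters (Rsad2 and Ifit3, either strand) or the NF-kB letters (Ifnb1 and Il6).
The windows are chr12:26456453-26456702 (minus strand) for Rsad2, chr19:34583279-34583528 (plus strand) for Ifit3, chr4:88522795-88523044 (minus strand) for Ifnb1 and chr5:30012864-30013113 (plus strand) for Il6, each read 5′ to 3′ and ending at the base before the start.
Rsad2: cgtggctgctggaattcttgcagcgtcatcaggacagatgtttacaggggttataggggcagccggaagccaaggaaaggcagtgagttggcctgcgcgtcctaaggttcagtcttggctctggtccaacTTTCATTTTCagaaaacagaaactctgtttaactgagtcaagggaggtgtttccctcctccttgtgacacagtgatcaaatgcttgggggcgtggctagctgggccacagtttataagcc
Ifit3: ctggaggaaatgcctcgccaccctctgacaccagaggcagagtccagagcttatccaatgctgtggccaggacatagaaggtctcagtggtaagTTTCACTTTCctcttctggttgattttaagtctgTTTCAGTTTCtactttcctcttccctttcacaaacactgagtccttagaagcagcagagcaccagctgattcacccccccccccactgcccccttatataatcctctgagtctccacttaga
Ifnb1: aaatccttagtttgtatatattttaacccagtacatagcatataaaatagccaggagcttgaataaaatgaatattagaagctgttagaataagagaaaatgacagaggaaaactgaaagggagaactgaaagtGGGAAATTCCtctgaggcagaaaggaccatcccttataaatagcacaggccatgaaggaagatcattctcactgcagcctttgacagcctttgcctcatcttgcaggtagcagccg
Il6: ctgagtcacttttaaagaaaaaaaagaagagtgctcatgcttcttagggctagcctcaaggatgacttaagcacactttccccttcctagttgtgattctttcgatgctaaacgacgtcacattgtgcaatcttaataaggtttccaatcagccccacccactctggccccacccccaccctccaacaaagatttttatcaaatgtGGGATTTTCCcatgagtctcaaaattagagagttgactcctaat
The ISRE letters begin at base −120 from the start in Rsad2 and at −156 and −122 in Ifit3, and the NF-kB letters at −116 in Ifnb1 and −44 in Il6.

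Cytokine genes moved in both directions. Of 18 tested, 11 were called lower and 7 higher (median −0.50), against 16.6% lower and 25.4% higher over all genes. Of the 14 with at least 10 TPM in both genotypes 9 were lower and 5 higher. Csf2, which encodes GM-CSF, was at 36.2, 33.3 and 36.9 TPM in wildtype and at 0.33, 0 and 0.56 TPM in dKO (−4.84 ± 0.152 SE, adjusted p = 7.54e-08). Csf3, which encodes G-CSF, was at 876, 927 and 917 TPM in wildtype and at 298, 301 and 281 TPM in dKO (−1.63 ± 0.036 SE, adjusted p = 9.11e-09). Lif fell from 94.7 ± 5.51 to 18.2 ± 1.81 TPM (−2.32). For Csf2, Csf3 and Lif, a cytokine of the IL-6 family, no dKO library reached a wildtype level. Il6 fell from 19.4 ± 0.580 to 6.99 ± 0.988 TPM (−1.36), the 4-1BB ligand Tnfsf9 from 74.4 ± 1.47 to 33.6 ± 2.22 TPM (−1.12) and Tnf, the most abundant of the group, from 2193 ± 81.3 to 1393 ± 58.6 TPM (−0.65, adjusted p = 2.59e-06). The remaining decreases were Vegfa, Osm, Pdgfb and Tgfb1, besides Ifnb1.

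The 7 cytokine genes called higher were Il1a, Il1b, Il18, Il15, Csf1, Il27 and Ebi3. Il1a was at 80.4, 83.4 and 87.3 TPM in wildtype and at 315, 346 and 334 TPM in dKO (1.97 ± 0.045 SE, adjusted p = 1.02e-08). Il1b rose from 283 ± 4.94 to 523 ± 41.0 TPM (0.88) and Il18 from 54.0 ± 4.65 to 95.9 ± 1.01 TPM (0.82). Il15, which sustains natural killer and memory T cells, rose from 4.94 ± 1.62 to 25.8 ± 2.21 TPM (2.21). Ebi3 was called higher on deposited TPM, but neither after median-of-ratios scaling nor in 3 of the 6 fits that leave out 1 library.

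Chemokine genes were more often higher. Of 9 tested, 6 were higher (66.7%) and 3 lower (33.3%), with a median of 0.67, against 25.4% and 16.6% over all genes. Ccl22, the ligand of CCR4 on regulatory T cells, was at 169, 175 and 170 TPM in wildtype and at 731, 783 and 780 TPM in dKO (2.15 ± 0.034 SE, adjusted p = 2.52e-09). Cxcl10, an interferon-inducible ligand of CXCR3, was at 702, 739 and 708 TPM in wildtype and at 1717, 1661 and 1553 TPM in dKO (1.2 ± 0.0395 SE, adjusted p = 9.78e-08). Ccl9 (0.92), Cxcl16 (0.67), Cxcl14 (0.68) and Ccl5 (0.33) rose as well. The neutrophil attractant Cxcl2 was at 3254, 3446 and 3436 TPM in wildtype and at 1708, 1671 and 1598 TPM in dKO (−1.03 ± 0.033 SE, adjusted p = 8.73e-08). Ccl3 and Ccl4, which attract monocytes and T cells and are among the most abundant transcripts of the cells, fell from 14360 ± 168 to 9686 ± 253 TPM (−0.57) and from 4944 ± 166 to 3041 ± 92.6 TPM (−0.70). The plot of cytokine and chemokine values shows no overlap between genotypes for the genes named here with per-library values.

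**Figure D4:**
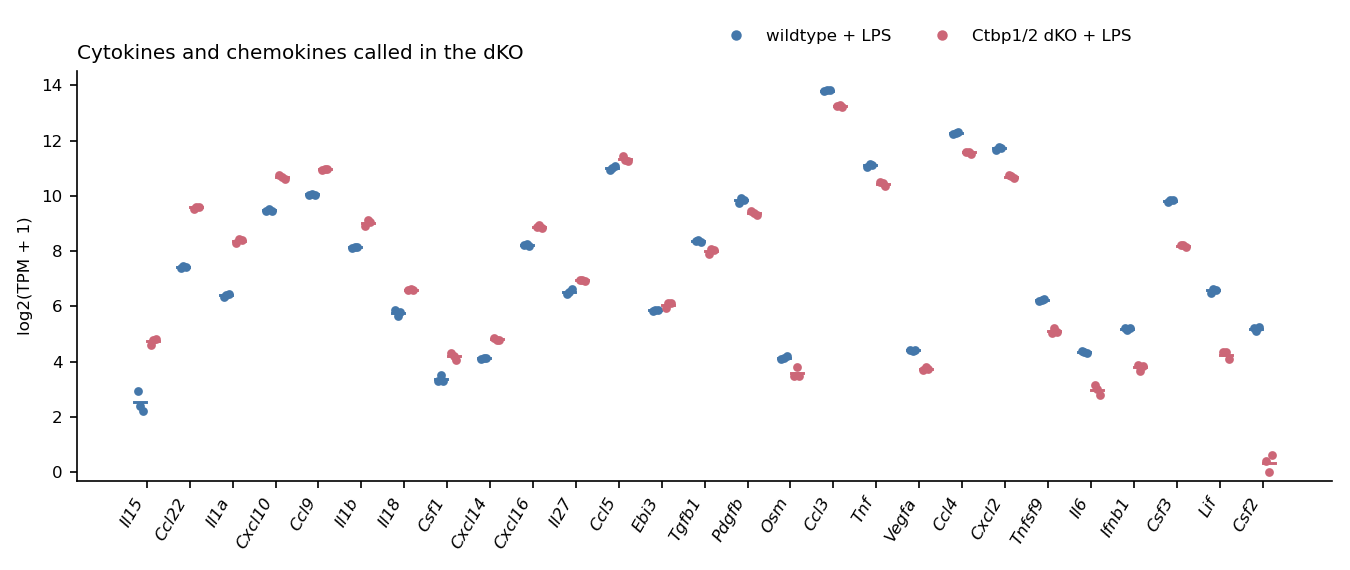
Points are single libraries (blue wildtype, red dKO, both with LPS) and short lines their means, on a log2(TPM + 1) axis, for the 27 cytokine and chemokine genes called, ordered from the largest increase to the largest decrease. Il15, Ccl22 and Il1a stand at the left; Csf3, Lif and Csf2 at the right.

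Components of NF-kB signalling and its feedback moved in both directions. Of 28 tested, 15 were called higher (53.6%) and 7 lower (25.0%), against 25.4% and 16.6% over all genes (median 0.13). With rescaled libraries 11 were higher and 10 lower, against 19.2% and 25.9% over all genes. Nfkbiz, an atypical IkB protein needed for a subset of secondary response genes such as Il6, was at 185, 193 and 190 TPM in wildtype and at 52.0, 57.1 and 49.6 TPM in dKO (−1.82 ± 0.052 SE, adjusted p = 3.94e-08). The RNase Zc3h12a fell from 112 ± 7.52 to 62.1 ± 1.67 TPM (−0.84), Sod2 by 0.74, Ptgs2 (cyclooxygenase 2) from 577 ± 14.2 to 361 ± 8.42 TPM (−0.67) and the inhibitor Nfkbia from 749 ± 37.5 to 549 ± 3.83 TPM (−0.45). Nfkbie, another IkB inhibitor, rose from 16.4 ± 0.628 to 41.6 ± 1.34 TPM (1.29). Tnfaip3, Birc3, Tnip1 and Zfp36 were not called.

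Upstream of these, transcripts of LPS sensing showed mostly small differences. Of 18 tested genes of TLR signalling, 11 were higher (61.1%) and 2 lower (11.1%), against 25.4% and 16.6% over all genes. The counts were 7 and 2 after scaling, and also without dKO replicate 2 or without dKO replicate 3. After scaling 19.2% of all genes were higher and 25.9% lower. Cd14, which hands LPS to TLR4, was at 1701, 1658 and 1694 TPM in wildtype and at 866, 1013 and 915 TPM in dKO (−0.86 ± 0.051 SE, adjusted p = 2.88e-06). Tlr2 rose from 144 ± 3.09 to 250 ± 2.39 TPM (0.79) and Myd88 by 0.36. Tlr4 itself was below the 10 TPM minimum, at 2.26 ± 0.223 TPM in wildtype and 4.72 ± 0.706 TPM in dKO. Of 13 tested immediate early genes 4 were higher (30.8%) and 6 lower (46.2%), so the higher share was near that of all genes. The counts were 2 and 7 after scaling, with 2 higher without any 1 of the wildtype replicates or without dKO replicate 3. Fos was at 7.24 ± 0.586 and 30.6 ± 1.97 TPM (1.94), while its partner Jun fell from 64.4 ± 2.54 to 27.4 ± 2.34 TPM (−1.21) and Ier3 from 351 ± 17.0 to 143 ± 7.72 TPM (−1.29).

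Of 16 tested macrophage identity genes 11 were higher (68.8%) and 2 lower (12.5%), against 25.4% and 16.6% over all genes. After scaling 9 were higher and 3 lower, against 19.2% and 25.9% over all genes. Beside the loss of Adgre1, Itgam, the CD11b integrin chain, was at 20.5, 17.0 and 20.8 TPM in wildtype and at 44.5, 51.0 and 47.6 TPM in dKO (1.26 ± 0.084 SE, adjusted p = 5.88e-06). Csf1r, the receptor for M-CSF, rose from 233 ± 6.63 to 335 ± 8.05 TPM (0.52), the lineage factor Spi1 from 395 ± 11.9 to 523 ± 18.1 TPM (0.40) and the factor Mitf from 5.87 ± 0.268 to 26.7 ± 0.411 TPM (2.01). Msr1, the class A scavenger receptor, was at 224, 210 and 196 TPM in wildtype and at 22.5, 31.3 and 28.7 TPM in dKO (−2.90 ± 0.113 SE, adjusted p = 6.71e-07). Of 11 tested scavenger receptors and lectins 6 were higher (54.5%) and 3 lower (27.3%), or 6 and 4 after scaling. Besides Msr1 the lower ones were the C-type lectin genes Clec4e (−0.63) and Clec4d (−0.80), and the higher ones were Clec12a (1.15), Scarb2 (1.01), Clec5a (0.79), Lgals3 (0.79), Lrp1 (0.53) and Scarb1 (0.20).

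Of 13 tested Fc receptor and signalling genes 8 were higher (61.5%) and 4 lower (30.8%), against 25.4% and 16.6% over all genes. After scaling 7 were higher and 5 lower, against 19.2% and 25.9% over all genes. Fcgr1, the activating high-affinity receptor, was at 25.2, 22.2 and 28.9 TPM in wildtype and at 75.1, 81.9 and 82.3 TPM in dKO (1.62 ± 0.088 SE, adjusted p = 1.71e-06). Fcgr2b, the inhibitory receptor, was at 57.6, 49.6 and 52.5 TPM in wildtype and at 13.3, 17.8 and 16.9 TPM in dKO (−1.68 ± 0.104 SE, adjusted p = 3.69e-06). In wildtype the transcript of the inhibitory receptor was the higher of the pair in TPM and in dKO that of the activating one, in all 3 libraries each. Among Src family kinases downstream, Fgr (1.85) rose and Lyn was not called, and the adaptors Vav1 (−0.86) and Lcp2 (−0.70) fell.

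Adhesion, calcium-binding and lipid mediator genes held further large increases. Over all genes 25.4% were called higher and 16.6% lower. Of 15 tested integrin and adhesion genes, 12 were higher and 1 lower (median 0.50; 11 and 1 of 14 with at least 10 TPM in both genotypes). Itgal, the LFA-1 chain, rose from 9.58 ± 1.12 to 51.6 ± 3.78 TPM (2.32), Itgav by 1.41 and Itga5, the fibronectin receptor chain, from 202 ± 4.71 to 480 ± 14.7 TPM (1.24). Of 13 tested S100 and annexin genes 9 were higher and 1 lower (median 0.67). S100a11 was at 215, 195 and 204 TPM in wildtype and at 1201, 1164 and 1172 TPM in dKO (2.52 ± 0.038 SE, adjusted p = 2.52e-09), and Anxa2 (109 ± 5.50 to 403 ± 7.16 TPM, 1.87) and its binding partner S100a10 (1.45) rose as well. Of 11 tested eicosanoid genes 6 were higher and 3 lower, but 3 and 3 of the 8 with at least 10 TPM in both genotypes. Ptgs1 and Alox5, the 5-lipoxygenase gene, rose from 3.57 ± 0.933 to 48.6 ± 1.52 TPM and from 4.22 ± 0.329 to 29.3 ± 1.16 TPM, whereas Ptgs2, Hpgds and the prostacyclin receptor gene Ptgir fell. Spp1, which encodes osteopontin, fell from 1754 ± 109 to 375 ± 28.0 TPM (−2.23).

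Genes of inflammasomes and lytic death were mostly higher, 9 of 13 tested with 1 lower (median 0.58), among them Mlkl, the executor of necroptosis (11.6 ± 0.0605 to 32.7 ± 3.14 TPM, 1.42), its trigger Zbp1 (1.18), Casp1 (27.2 ± 0.941 to 55.0 ± 1.94 TPM, 0.99) and Gsdmd (0.58). Of 11 tested genes of itaconate, nitric oxide, arginine and polyamine metabolism 5 were lower and 1 higher (median −0.19; 8 and 1 after scaling, 2 higher without dKO replicate 2). Over all genes 16.6% were lower and 25.4% higher, or 25.9% and 19.2% after scaling. Nos2, the inducible nitric oxide synthase, fell from 102 ± 3.22 to 60.6 ± 7.82 TPM (−0.74), and Acod1, which makes itaconate, from 2126 ± 65.3 to 1836 ± 54.6 TPM (−0.21), beside Odc1. Cybb, the catalytic subunit of the phagocyte NADPH oxidase, was at 402, 405 and 410 TPM in wildtype and at 140, 143 and 141 TPM in dKO (−1.51 ± 0.026 SE, adjusted p = 3.3e-09). The complement component C3 fell by 1.32.

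Outside immunity the group differences were smaller. Shares over all genes were 25.4% higher and 16.6% lower, or 19.2% and 25.9% after scaling. Of 36 tested cell cycle and replication genes 21 were lower and 2 higher (median −0.21; 24 and 2 after scaling). Ccnd1, cyclin D1, went from 278 ± 1.73 to 171 ± 2.49 TPM (−0.70), Cdk1 from 319 ± 9.18 to 221 ± 11.2 TPM (−0.53), and Rrm2 (−0.53), Cdt1 (−0.52) and Top2a (−0.43) fell too, while Pcna, Mcm5 and Mcm7 were not called. Lysosomal genes gave 13 higher and 1 lower of 25 tested (median 0.16; 11 and 2 after scaling, 0 lower without any 1 of the wildtype replicates or without dKO replicate 3, 2 lower without dKO replicate 2), led by Grn, progranulin (61.5 ± 1.48 to 112 ± 3.89 TPM, 0.85), and Ctsz (0.69). Subunits of the V-ATPase proton pump gave 11 higher and 0 lower of 16 on deposited TPM, but 6 and 1 after scaling, and cholesterol synthesis genes 12 and 0 of 21, then 7 and 0. The higher counts also fell with 1 library left out, for the V-ATPase to 6 without wildtype replicate 2 and to 7 without wildtype replicate 3 or without dKO replicate 3, and for cholesterol synthesis to 6 without wildtype replicate 2, dKO replicate 2 or dKO replicate 3. Of 12 LXR target and lipid handling genes 7 were higher and 1 lower, with Lpl, lipoprotein lipase, up from 97.4 ± 3.15 to 285 ± 9.77 TPM (1.54) and the fatty acid carrier Fabp5 down from 71.1 ± 1.46 to 23.0 ± 0.794 TPM (−1.58). Cytosolic ribosomal protein genes gave 3 higher and 6 lower of 79 (median −0.02), but 1 and 29 after scaling, and nuclear genes of the respiratory chain 14 and 3 of 68, then 1 and 6, so no direction can be given for these 2 groups. With 1 library left out the ribosomal counts reached 6 higher (without dKO replicate 2), 3 lower (without wildtype replicate 1) and 2 lower (without wildtype replicate 2), and the respiratory chain had 7 higher without wildtype replicate 1.

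**Figure D5:**
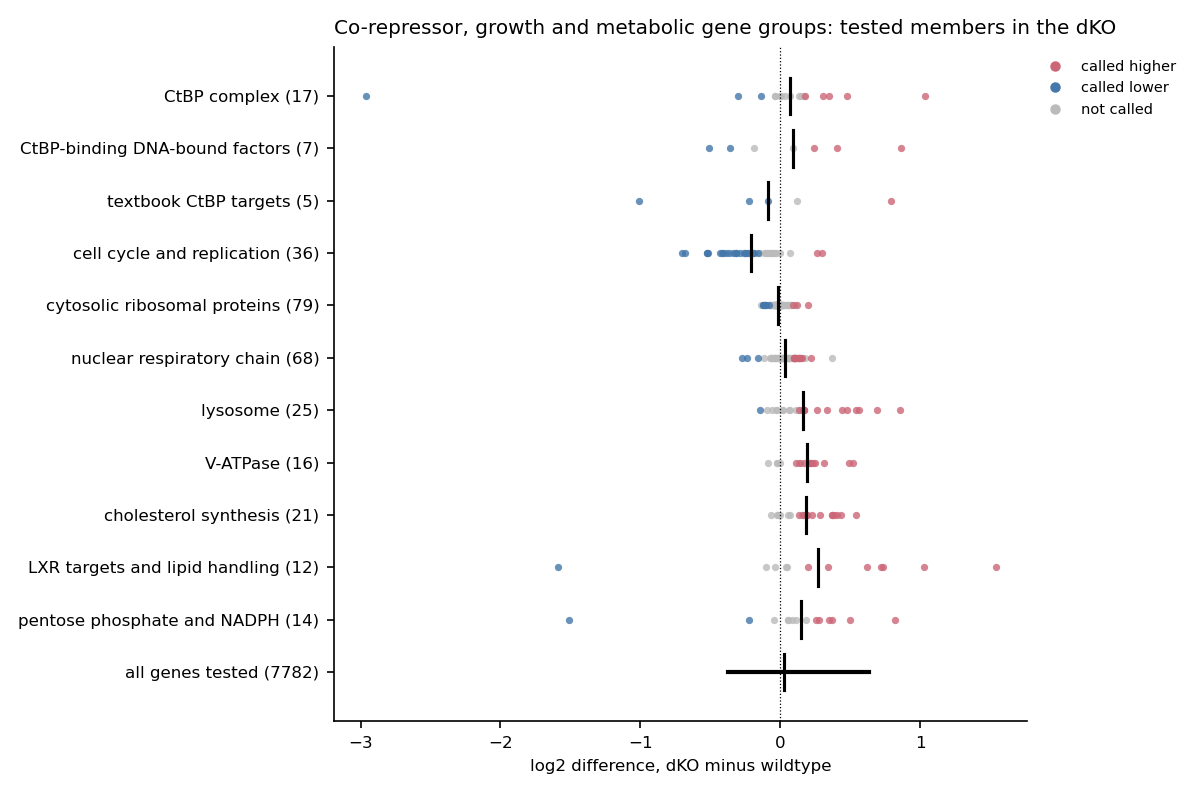
Each point is a tested member of the gene group on the y axis (number tested in brackets), placed at its log2 difference of TPM + 1, dKO minus wildtype; red and blue mark calls, grey genes not called, and black ticks group medians. The bottom bar spans the 5th to 95th percentile of all genes tested (−0.38 to 0.64). Cell cycle members lie mainly to the left, and most ribosomal and respiratory chain members lie near 0.

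Of 17 tested genes of the CtBP complex, 5 were higher (29.4%) and 3 lower (17.6%), Ctbp1 and Ctbp2 included in the 3, against 25.4% and 16.6% over all genes. Zfp217, a zinc finger protein found with CtBP, rose from 10.3 ± 0.821 to 22.3 ± 0.831 TPM (1.04), while the demethylase gene Kdm1a (LSD1), Rcor1 and Wiz were not called. Of 7 tested DNA-bound CtBP partners 3 were higher (42.9%) and 2 lower (28.6%). The counts were 3 and 3 after scaling, with 1 lower without wildtype replicate 2 or without wildtype replicate 3. Zeb2 rose from 69.9 ± 2.23 to 128 ± 3.77 TPM (0.86). Of 18 genes known from other cells as CtBP targets only 5 reached the 10 TPM minimum, of which 1 was higher and 3 lower (2 higher without dKO replicate 1, 1 lower without wildtype replicate 3). The higher gene was the p53-regulated BH3-only gene Pmaip1, from 10.2 ± 0.403 to 18.3 ± 1.08 TPM (0.79). The largest decrease was that of another BH3-only gene, Bbc3, from 14.9 ± 0.782 to 6.88 ± 0.561 TPM (−1.01), and the others were Bax (−0.22) and Cdkn1a (−0.09), of which Cdkn1a kept its call in only 1 of the 6 fits that leave out 1 library. Bmf, named above as such a target, was below the 10 TPM minimum and so not tested, and was near 0 in wildtype and higher in dKO. The 5 tested genes therefore give no direction for CtBP targets as a set. The epithelial genes Krt8 and Krt18 were at or near 0 in both genotypes.

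The differences were then set against the LPS response of other macrophages of the series. In control siRNA BMDMs LPS raised 564 of 7918 tested genes at least 2-fold (7.12%) and lowered 769 (9.71%). Of the induced genes 396 were tested in J774.1 cells, and 197 of these were higher (49.7%) and 112 lower (28.3%) in dKO, both above the shares of the 5749 genes in neither class (24.2% and 14.9%). Its 39 members from the antiviral, GBP, IRF and STAT, and class I groups gave 38 higher and 1 lower (median 1.09), and the 357 others 159 higher and 111 lower (median 0.08; 137 and 131 after scaling). LPS-repressed genes gave 146 higher and 79 lower of 399 tested (36.6% and 19.8%). The classes come from other cells, and a gene in them need not respond to LPS in J774.1 cells. Ifnb1, Lif and Csf3 were outside them, since their means in LPS-treated control BMDMs were only 1.26, 1.4 and 1.16 TPM, and H2-Aa, listed at 0 in wildtype J774.1 cells, was at 75.6 TPM there.

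Finally, the knockout was set beside siRNA against each gene in LPS-treated BMDMs. The tables were normalized separately and both siRNA comparisons use the same control libraries, so values are given side by side only. With Ctbp2 siRNA 251 of 7918 genes were called (3.17%; 0.77% higher and 2.4% lower), and 189 of them were tested in J774.1 cells. Of these, 104 were also called in dKO (55.0% of the siRNA calls). Among all 6544 genes tested in both, 2784 were called in dKO, 1734 of them higher. The shared calls were 3.74% of the 2784. Of the 189 siRNA calls 150 were lower, so opposite directions were likely among shared calls from these counts alone. Of the 104 shared calls 27 were in the same direction and 77 in opposite directions. The largest block was 62 genes lower with siRNA and higher in dKO, which held the interferon genes Igtp, Irgm1, Irgm2, Ifi35, Adar, Eif2ak2, Oas1b and Nlrc5. After scaling both tables the block held 12 genes and none of these 8, with 52 shared calls in the same direction and 56 in opposite directions. Without replicate 4 of the control siRNA LPS group 73 calls were shared, 27 in the same direction and 46 in opposite directions, and a fit of only the 6 BMDM libraries compared shared 2. The 48 antiviral genes tested in BMDMs gave 0 higher and 4 lower with Ctbp2 siRNA (median −0.14; 0 and 0 after scaling, median −0.06) and 0 called with Ctbp1 siRNA (median −0.16). Without replicate 4 of the control siRNA LPS group 7 were lower with Ctbp2 siRNA (median −0.21) and 3 with Ctbp1 siRNA (median −0.24). Rsad2, at 6.80 in dKO, was at −0.20 with Ctbp2 siRNA (adjusted p = 0.504) and −0.24 with Ctbp1 siRNA (0.751). Higher in both were Ccl22 (2.15 in dKO, 0.79 with Ctbp2 siRNA, adjusted p = 0.0489), Itga5 (1.24 and 0.21, 0.0212), Cd44, Ctss, H2-D1, Mdfic, Mmd, Myh9, Picalm and Pstpip1, of which Mmd and Myh9 were not called in dKO after scaling and Mmd kept its dKO call in only 1 of the 6 fits that leave out 1 library. Ccl22, Mdfic and Pstpip1 were not among the genes higher in both without replicate 4 of the control siRNA LPS group. With Ctbp1 siRNA 12 genes were called (0.152%; 0.0253% higher and 0.126% lower), 9 were tested in J774.1 cells and 5 were called there, 3 in the same direction: Ctbp1 itself, Slc25a5 and Slc15a4, the last of which was not among them after scaling. Those counts rest on 1 library: without replicate 4 of the control siRNA LPS group 66 calls were shared, 41 in the same direction and 25 in opposite directions. These fits were chosen after the data were seen. Genotype, strain, cell type and time without CtBP all differ between the systems and cannot be told apart here.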

How the data were processed

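RNA was sequenced from poly(A) libraries that do not keep strand, which leaves genes that overlap on opposite strands unresolved, on either of 2 NovaSeq models, per the labels' protocols, which do not say which library ran on which. The authors used Salmon 1.9.0 for quantification and, in R 4.4.1, DESeq2 1.44.0, per the submitters' processing notes, which name mm39, GRCm38 and GRCm39 without saying which build the J774.1 table used. The deposited TPM keep no depth, so the depth is unknown. The deposited table's mean normalized count (a signal per gene), log2 fold change and p-value columns are the authors' own and were used only for the comparison of calls. Repeated lines of a gene ID were dropped (281 lines, identical TPM), and no reads were recounted.

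Here log2(TPM + 1) for genes averaging 10 TPM or more was fitted with limma 3.58.1 (R 4.3.3; trend and robust options) on the 6 libraries, without a block, with Benjamini-Hochberg adjustment over all genes tested. Of those genes 209 passed the minimum only through dKO and 101 only through wildtype. BMDM tables were fitted alike over 18 libraries. The fits were tested on simulated data. Alternatives were other pseudocounts and filters, median-of-ratios scaling, a replicate block, plain moderation and leaving out each library. Members and lists were chosen with earlier results of these data known.

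Named genes were the targets, the 15 largest called differences in each direction that averaged 20 TPM or more without overlap, up to 10 genes near 0 in 1 genotype per direction, and per list up to 6 called members by size and 4 not called by mean. Named outside that rule, after their values were seen, were Adar, B2m, Ccl3, Ccl5, Cd44, Cd68, Cd86, Ciita, Clec4e, Csf1, Ctss, Cxcl16, Ebi3, Eif2ak2, Gsdmd, H2-D1, H2-K1, Ifi35, Il1b, Il27, Il6, Irf7, Isg15, Lrp1, Lyz2, Mcm7, Mdfic, Mmd, Myh9, Nfkbia, Nlrc5, Oas1b, Osm, Pdgfb, Picalm, Pstpip1, Scarb1, Slc15a4, Slc25a5, Slfn2, Tlr4, Tnfaip3 and Usp18. Some results are not reported here.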

Additional observations from a re-analysis of the deposited data

How the results depend on the processing

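Among the 173 tested genes named, none with a call in the main fit or in an alternative reversed direction in that alternative. For 162 of the 173 the call did not change in any alternative that tested them. A change of sign in a gene called in neither fit was not counted. Median-of-ratios scaling raised the genes called lower from 1293 to 2015, and moved the higher or lower count of 10 of the 28 lists described by more than 1.5 times. At least 2-fold calls went from 241 to 495 with a minimum of 1 TPM and 515 with none, and LPS-repressed genes called higher from 146 to 253 and 233. A 4-fold class left 91 induced genes higher and 61 lower, and 16 repressed genes higher and 10 lower. The stricter rule for genes near 0 left 5 higher and 2 lower. For Ctbp1 siRNA the shared calls were 66 without replicate 4 of the control siRNA LPS group (41 same, 25 opposite) and 1 with only the 6 libraries compared (1 same, 0 opposite). For Ctbp2 siRNA 52 were in the same direction after scaling, 46 opposite without that replicate, and 2 shared with only the 6 libraries (1 same, 1 opposite).

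Leaving out 1 library gave 2774 to 3069 calls, 1680 to 1894 higher and 1027 to 1256 lower, with 230 to 255 at least 2-fold. Ctbp1 ranged from −3.05 to −2.83 and Ctbp2 from −0.34 to −0.28. Induced genes gave 178 to 192 higher and 97 to 110 lower, repressed genes 125 to 142 and 65 to 77. It moved the higher or lower count of 10 of the 28 lists by more than 1.5 times, and those values stand beside the lists. Same-numbered deviations of the genotypes correlated at 0.163, 0.0635 and −0.0264, and unlike-numbered ones at −0.145 to 0.0616. With 3 replicates per genotype these values cannot settle whether the numbers pair the samples. A replicate block gave 2964 calls (1805 higher, 1159 lower). TPM keep no depth, so the precision of low genes is unknown.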
